A study of Homo sapiens with 3 samples.

Results

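The EGR and NR4A genes encode transcription factors of the immediate early class, whose transcripts are made within minutes of a stimulus and without new protein synthesis. The members were the probe sets whose single gene symbol in the platform annotation was EGR1, EGR2, EGR3, EGR4, NR4A1, NR4A2 or NR4A3. They came to 16 probe sets of 6 genes, out of 41091 probe sets with 1 gene symbol and 19775 genes. The EGR family had 7 of these probe sets and the NR4A family 9. EGR2 was not analysed here, since no probe set carried it as its single symbol in that annotation.

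Cells were of SKBR3, a human breast tumour line in wide laboratory use. Its ERBB2 gene is amplified, it has no oestrogen receptor α, and it expresses GPER1, a membrane receptor for oestrogen. All cells first spent 4 h in medium whose serum (10%) had been stripped of steroid hormones with charcoal. They then received 1 µM estradiol, 1 µM ERα17p (a synthetic peptide copied from a stretch of oestrogen receptor α) or 0.1% ethanol as vehicle, and RNA was taken after 3 h. With 1 array for each of the 3 conditions there are no replicates, and therefore neither errors nor p-values. What ERα17p was dissolved in is not given in the labels. An ethanol share (0.1%) is recorded for the vehicle array only, and for neither treated array.

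EGR proteins are zinc finger factors that bind GC-rich elements. Growth factors, stress and cytokines switch on EGR1 through the ERK kinases, which activate ternary complex factors bound with SRF at the promoter's serum response elements, and the co-repressors NAB1 and NAB2 then restrain EGR activity. NR4A1 (Nur77), NR4A2 (Nurr1) and NR4A3 (NOR1) are orphan nuclear receptors with a ligand pocket filled by their own side chains, so that their activity follows largely from how much of them is made. They are induced through cAMP, calcium and NF-kB signals. In SKBR3 cells estradiol is known from other work to raise EGR1 through GPER1 and ERK.

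Promoter sequences came from RefSeq (GRCh38.p14) and run from 250 bases before to 50 bases after a transcription start. The table held 5 of the 7 members by symbol, and 4 of the 6 genes with values: EGR1, EGR4, NR4A1 and NR4A3. Shown are EGR1 and NR4A3, which differed widely from vehicle in the results below, and EGR4, which did not. Capitals mark the CArG box, which is the core of the serum response element, and the core TGACG of the cAMP response element, searched on both strands (CGTCA is TGACG on the other strand). The EGR1 window is chr5:138465229-138465528, plus strand, the NR4A3 window chr9:99821635-99821934, plus strand, and the EGR4 window chr2:73293499-73293798, minus strand.
EGR1: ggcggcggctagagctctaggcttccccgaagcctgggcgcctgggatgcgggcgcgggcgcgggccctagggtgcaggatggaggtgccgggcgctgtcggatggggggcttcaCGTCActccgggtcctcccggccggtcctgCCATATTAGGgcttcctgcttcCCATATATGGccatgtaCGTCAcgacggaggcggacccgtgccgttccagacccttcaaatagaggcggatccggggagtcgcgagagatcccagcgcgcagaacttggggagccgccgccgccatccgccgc
NR4A3: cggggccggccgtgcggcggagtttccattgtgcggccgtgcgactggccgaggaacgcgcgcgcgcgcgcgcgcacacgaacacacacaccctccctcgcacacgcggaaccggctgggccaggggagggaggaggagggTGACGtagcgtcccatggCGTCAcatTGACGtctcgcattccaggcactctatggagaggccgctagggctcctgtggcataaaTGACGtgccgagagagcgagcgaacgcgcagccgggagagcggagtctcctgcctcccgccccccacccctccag
EGR4: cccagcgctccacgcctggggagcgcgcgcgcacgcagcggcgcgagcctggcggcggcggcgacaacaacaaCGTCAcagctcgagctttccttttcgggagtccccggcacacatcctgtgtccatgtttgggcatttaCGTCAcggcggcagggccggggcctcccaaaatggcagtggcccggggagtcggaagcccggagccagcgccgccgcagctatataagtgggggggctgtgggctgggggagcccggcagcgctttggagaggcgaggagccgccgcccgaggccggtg

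The EGR1 window held 2 CArG boxes, beginning 105 and 83 bases before the start, and 2 copies of the cAMP response element core. Among all 35116 promoters 1.29% held a CArG box, and 0.0313% (11 promoters) held at least 2. The NR4A3 window held 4 cores and no CArG box. At least 4 cores occurred in 0.313% of promoters, and at least 1 in 24.6%. EGR4 held 2 cores (6.02% of promoters held at least as many) and, in letters not capitalised here, 2 matches to the NF-kB site (2.04% held at least as many). NR4A1 had 2 windows, beginning at chr12:52022582 and chr12:52037465, and both held none of the motifs searched. Any other start of NR4A1 was not searched, so these windows do not stand for all its promoters. No window of these members held the full cAMP response element TGACGTCA (1.85% of promoters), the EGR element GCGTGGGCG or GCGGGGGCG (5.77%), the NR4A element AAAGGTCA (1.22%) or TATAAA (11.5%). The core lies within the full element, so those searches overlap. These matches describe letters in a window and not bound sites.

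The deposited values are not expression levels. The authors' values lie around 0 for each probe set, as distances from a baseline that was taken to rest partly on arrays not used here, and their log base was taken as 2. The vehicle array stood apart from both others over the whole series. The standard deviation over all probe sets was 0.12 log2 units with estradiol and 0.13 with ERα17p, against 0.27 with vehicle. The 3′ control probe set minus the 5′ one bears on RNA integrity, but from centred values it only compares arrays and gives no level. For ACTB it gave 0.02 with estradiol, -0.04 with ERα17p and 0.30 with vehicle. For GAPDH the arrays gave 0.01, -0.03 and 0.05 in the same order. The part of either in the results was not tested. Whether SKBR3 markers are expressed cannot be read from centred values. Of 9 luminal markers none differed by 1.5-fold or more with estradiol against vehicle, while the epithelial factor gene ELF3 was lower with ERα17p (-0.67, and -0.56 with estradiol). None of 8 endothelial, 6 leukocyte and 7 fibroblast markers differed by 1.5-fold in any of the 3 comparisons. A gene or probe set is called "higher" or "lower" where 2 arrays differ by 1.5-fold or more, which is 0.58 on the log2 scale.

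On both treated arrays the members lay near the authors' baseline, and on the vehicle array most lay far above it. In RNA from whole cultures, fewer cells expressing a gene and less RNA per cell cannot be told apart. Over the 16 probe sets, values ran from -0.05 to 0.35 (median 0.07) with estradiol and from -0.27 to 0.06 (median -0.04) with ERα17p, against -0.36 to 2.19 (median 0.96) on the vehicle array. The estradiol array was the highest of the 3 in 2 probe sets, the ERα17p array in 0 and the vehicle array in 14. The lowest was the estradiol array in 2, the ERα17p array in 12 and the vehicle array in 2. Such orders were not counted over all probe sets. At least 1.5-fold above the baseline lay 0 of the 16 on the estradiol array, 0 on the ERα17p array and 10 on the vehicle array. Over all probe sets with 1 symbol, 0.0268% lay that far above it on the estradiol array, 0.0535% on the ERα17p array and 2.88% on the vehicle array.

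**Figure D1:**
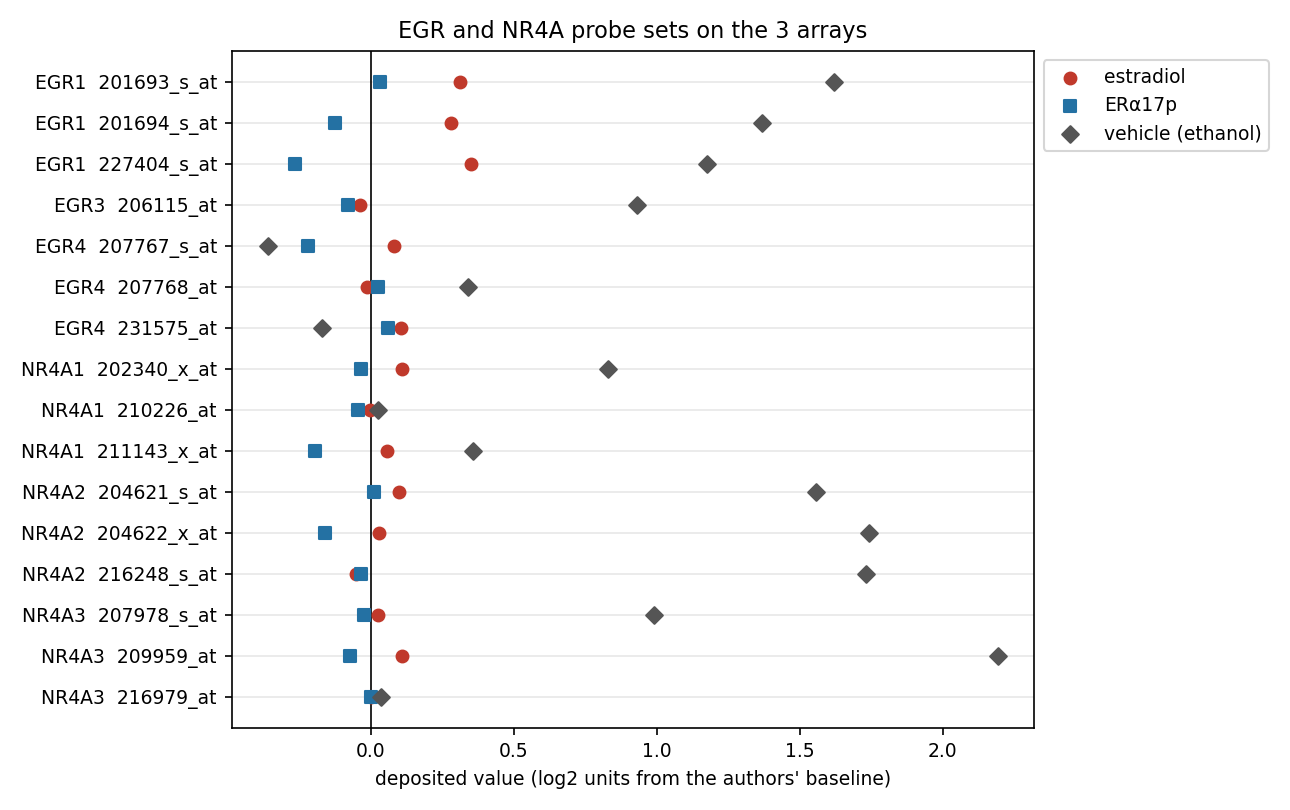
Deposited values (log2 units from the authors' baseline, horizontal axis) of the 16 EGR and NR4A probe sets on the estradiol, ERα17p and vehicle arrays, 1 point per array. Points of both treated arrays lie between -0.27 and 0.35, while 10 vehicle points lie at least 1.5-fold above the baseline, up to 2.19.

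EGR1, the founding member of its family, was lower on both treated arrays. Probe set 201693_s_at had 0.31 with estradiol and 0.03 with ERα17p, against 1.62 with vehicle. Probe set 201694_s_at had 0.28 with estradiol, -0.13 with ERα17p and 1.37 with vehicle. Probe set 227404_s_at had 0.35 with estradiol, -0.27 with ERα17p and 1.18 with vehicle. All 3 probe sets thus put the ERα17p array lowest, the estradiol array in the middle and the vehicle array highest. Estradiol minus vehicle was -1.31, -1.09 and -0.83 in the same order of probe sets, and ERα17p minus vehicle was -1.59, -1.49 and -1.44. As a gene value, the median over its probe sets, EGR1 differed by -1.06 on the log2 scale with estradiol (2.08-fold lower) and by -1.49 with ERα17p (2.82-fold lower). Among 19775 genes it ranked 158th from the lowest with estradiol and 56th from the lowest with ERα17p. The promoter with 2 CArG boxes printed above belongs to this gene, and any part of those boxes in the difference was not tested.

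EGR3, a relative of EGR1 that is also known as an early oestrogen-responsive gene in receptor-positive breast cancer cells, has 1 probe set, 206115_at. It had -0.04 with estradiol and -0.08 with ERα17p, against 0.93 with vehicle. The differences from vehicle were -0.97 with estradiol (1.96-fold) and -1.01 with ERα17p (2.01-fold). Both treated arrays were close to each other, and the vehicle array alone was high.

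EGR4, a member studied mainly in neurons and germ cells, was not called in any comparison, and its 3 probe sets differed in order. Probe set 207767_s_at had 0.08 with estradiol and -0.22 with ERα17p, against -0.36 with vehicle. Probe set 207768_at had -0.02 with estradiol and 0.02 with ERα17p, against 0.34 with vehicle. Probe set 231575_at had 0.11 with estradiol and 0.06 with ERα17p, against -0.17 with vehicle. The vehicle array was thus the lowest in 2 probe sets and the highest in the other. Estradiol minus vehicle was 0.44, -0.36 and 0.28 in the same order of probe sets, and ERα17p minus vehicle was 0.14, -0.32 and 0.23. The 2 probe sets above 0 were the only ones of the 16 that were above 0 in either comparison with vehicle.

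NR4A2, an orphan receptor best known for its need in dopamine neurons and also an early gene of inflammation, had the widest gene value difference of the 6 members. Probe set 204621_s_at had 0.10 with estradiol and 0.01 with ERα17p, against 1.56 with vehicle. Probe set 204622_x_at had 0.03 with estradiol, -0.16 with ERα17p and 1.74 with vehicle. Probe set 216248_s_at had -0.05 with estradiol, -0.04 with ERα17p and 1.73 with vehicle. The 3 probe sets gave nearly the same picture, with both treated arrays near the baseline and the vehicle array high. Estradiol minus vehicle was -1.46, -1.71 and -1.79, and ERα17p minus vehicle -1.55, -1.90 and -1.77. The gene value differed by -1.70 with estradiol (3.26-fold lower, 55th from the lowest of all genes) and by -1.77 with ERα17p (3.41-fold lower, 39th from the lowest).

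NR4A3, the receptor NOR1, held the single widest probe set of the members and also one that hardly differed. Probe set 209959_at had 0.11 with estradiol and -0.07 with ERα17p, against 2.19 with vehicle, where it ranked 47th from the highest of 41091 probe sets. Probe set 207978_s_at had 0.02 with estradiol and -0.02 with ERα17p, against 0.99 with vehicle. Probe set 216979_at lay between -0.00 and 0.03 on all 3 arrays. Estradiol minus vehicle was -2.08 for 209959_at (4.24-fold), -0.96 for 207978_s_at and -0.03 for 216979_at. ERα17p minus vehicle was -2.27 (4.81-fold), -1.01 and -0.03 in the same order. Its 3 probe sets ranged over 2.05 log2 units with estradiol, the 10th widest range of the 2780 genes with 3 probe sets (median range 0.32), and over 2.23 with ERα17p, the 6th widest (median range 0.30). The gene value, -0.96 with estradiol and -1.01 with ERα17p, is that of the middle probe set.

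NR4A1, the receptor Nur77, which is also known for a mitochondrial role in cell death, differed in the same direction but less, and its gene value was not called. Probe set 202340_x_at had 0.11 with estradiol and -0.04 with ERα17p, against 0.83 with vehicle. Probe set 211143_x_at had 0.06 with estradiol and -0.19 with ERα17p, against 0.35 with vehicle. Probe set 210226_at had -0.00 with estradiol and -0.05 with ERα17p, against 0.02 with vehicle. All 3 put the ERα17p array lowest and the vehicle array highest. Only 202340_x_at was lower by the 1.5-fold rule, by -0.72 with estradiol and -0.86 with ERα17p, while 211143_x_at had -0.30 and -0.55. The gene value was -0.30 with estradiol and -0.40 with ERα17p. The ending _x_at marks probe sets that can take up other transcripts, so that both wider differences of NR4A1 carry that uncertainty.

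With estradiol against vehicle, 10 of 16 probe sets were lower and 0 higher, where 3.71% of all probe sets were lower and 1.38% higher. By gene value 4 of 6 were lower (EGR1, EGR3, NR4A2 and NR4A3), against 2.93% of all genes, and 0 were higher, against 0.809% of all genes. At 2-fold or more, 2 of the 6 were lower (EGR1 and NR4A2), against 0.895% of all genes. The median of the 6 gene values was -0.97, beside 0.03 over all genes. By family, 2 of 3 EGR genes and 2 of 3 NR4A genes were lower. Probe sets lower numbered 4 of 7 for EGR and 6 of 9 for NR4A.

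With ERα17p against vehicle, the same 10 of 16 probe sets were lower and 0 higher, where 2.76% of all probe sets were lower and 0.886% higher. By gene value the same 4 of 6 genes were lower, against 2.14% of all genes, and 0 were higher, against 0.582% of all genes. At 2-fold or more the same 4 were lower, against 0.738% of all genes. The median gene value was -1.01, beside 0.03 over all genes. Both comparisons share the vehicle array, so that likeness between them is not separate evidence. With the authors' baseline in place of the vehicle array, 0 of the 6 genes were called for either treatment. That count is partly fixed by the centring, since the baseline was taken to rest in part on these same arrays and then draws their values towards 0. For 207978_s_at, which gives the gene value of NR4A3, the estradiol and ERα17p values mirror each other around 0 (0.024 and -0.024). Over all genes 0.0506% were then lower and 0.00506% higher with estradiol, and 0.00506% were lower and 0.0657% higher with ERα17p. Gene values then lay between -0.04 (EGR3) and 0.31 (EGR1) for estradiol, and between -0.13 (EGR1) and 0.02 (EGR4) for ERα17p. Without probe sets ending in _x_at or _s_at, which can take up several transcripts, EGR1 and NR4A2 had no value, and 2 of the 4 genes left (EGR3 and NR4A3) were lower in each comparison. EGR4 then turned to -0.039 with estradiol and -0.044 with ERα17p, and NR4A1, read by 210226_at alone, came to -0.027 and -0.069. A lowering common to both treatments and a height of the vehicle array alone cannot be told apart with these 3 arrays.

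**Figure D2:**
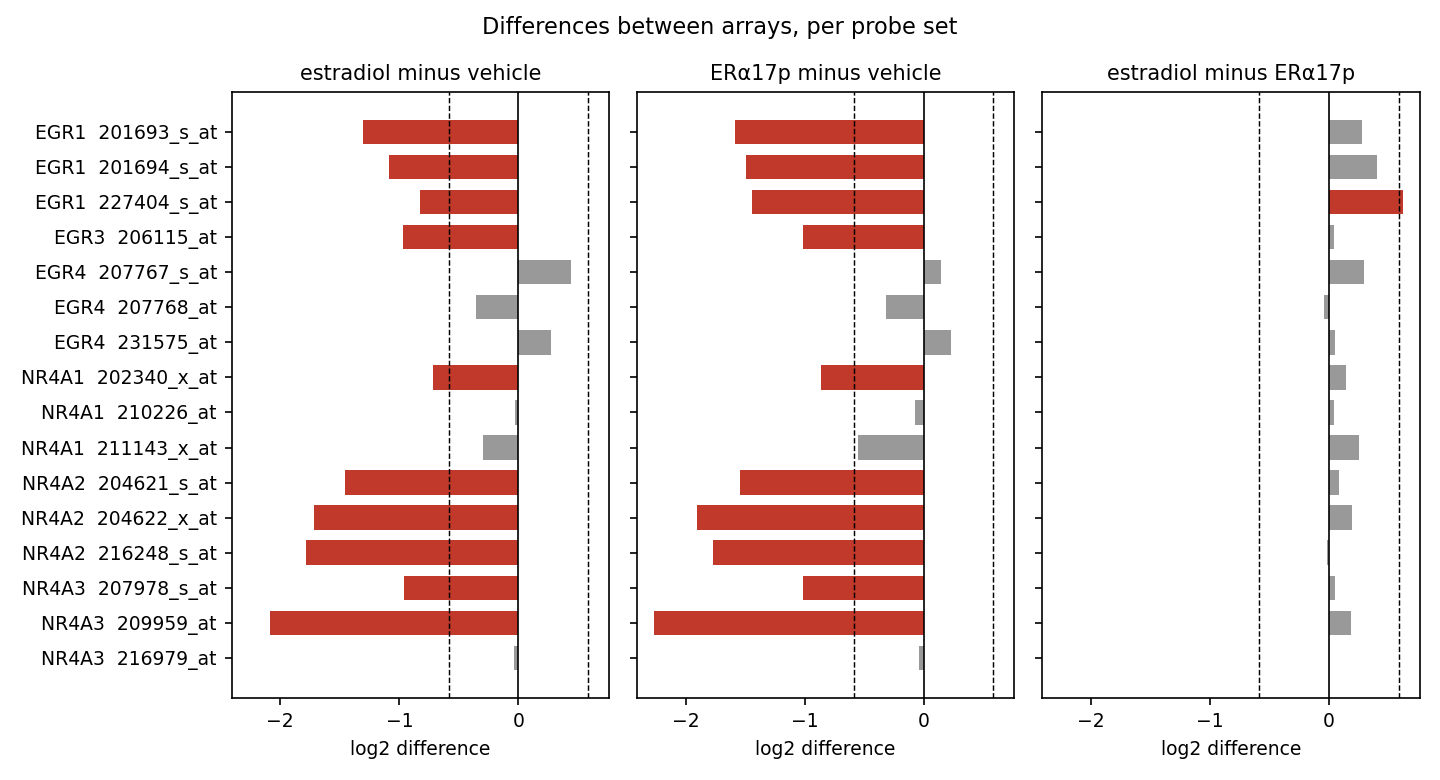
Log2 differences between arrays (bars from 0) for the 16 probe sets in the 3 comparisons; dashed lines mark 1.5-fold and red bars pass it. In each comparison with vehicle the same 10 probe sets are lower, and between the treated arrays 1 EGR1 probe set passes, at 0.62.

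**Figure D3:**
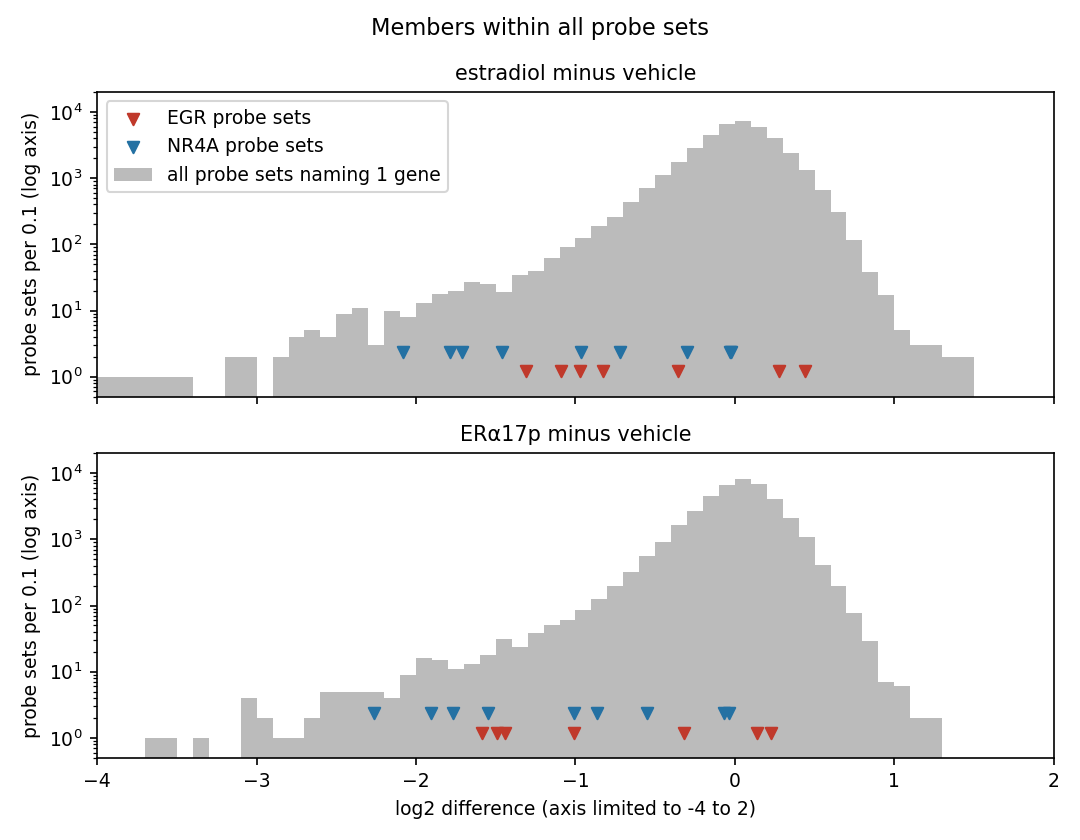
Histogram of the log2 differences from vehicle of all 41091 probe sets with 1 gene symbol (grey, log count axis, 0.1 per bin, limited to -4 to 2), with EGR and NR4A probe sets as triangles at arbitrary heights. Called members lie from -0.72 to -2.08 with estradiol and from -0.86 to -2.27 with ERα17p, in the long left tail of the grey bars.

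Estradiol was then set against ERα17p directly, a comparison without the vehicle array. EGR1 differed most, and every other gene value lay between 0.04 and 0.10. All 3 EGR1 probe sets were above 0, at 0.28 for 201693_s_at, 0.41 for 201694_s_at and 0.62 for 227404_s_at. Only the last was higher by the 1.5-fold rule (1.54-fold, 95th from the highest of 41091 probe sets), where 0.314% of all probe sets were higher and 0.290% lower. The gene value of EGR1 was 0.44 (1.35-fold), below the 1.5-fold rule and 175th from the highest of 19775 genes. The estradiol array itself held EGR1 above the baseline by 0.28 to 0.35 in 3 of 3 probe sets, whereas the ERα17p array held it at 0.03, -0.13 and -0.27.

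For the other 5 genes the gene values were 0.04 for EGR3, 0.06 for EGR4, 0.10 for NR4A1, 0.06 for NR4A2 and 0.05 for NR4A3. Of the 16 probe sets 14 were above 0, and the exceptions were 207768_at of EGR4 (-0.04) and 216248_s_at of NR4A2 (-0.02). Over all genes 53.9% lay below 0, and that share was not computed over all probe sets. The 16 probe sets come from 6 genes on 1 pair of arrays and are not replicates. By gene value 0 of 6 were higher, against 0.147% of all genes, and 0 were lower, against 0.207%. The standard deviation of this comparison over all genes was 0.16 log2 units, and every gene value but that of EGR1 lay within it.

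Genes around these factors were taken from lists of textbook partners and targets, chosen with earlier results of these data known. Beside them stand the shares over all genes given above and the all-gene medians (0.03 for each treatment against vehicle, -0.01 between the treatments). Of the EGR co-repressors, NAB1 had -0.51 with estradiol and -0.49 with ERα17p against vehicle, with 4 probe sets that ran from -0.65 to 0.64 with estradiol. NAB2, itself induced by EGR factors, had 0.20 and 0.12. Neither passed 1.5-fold. The retinoid X receptors, which pair with NR4A1 and NR4A2, did not pass it either. RXRA had 0.02 with estradiol and 0.09 with ERα17p, RXRB 0.06 and 0.16, and RXRG 0.31 and 0.36.

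Factors that act on EGR and NR4A promoters had medians nearer 0 than the members. With estradiol against vehicle 1 of 11 measured genes was lower and 0 higher (median -0.26), and with ERα17p 0 were lower and 0 higher (median -0.26). Over all genes 2.93% were lower with estradiol and 2.14% with ERα17p, so these counts cannot tell the list from all genes. Below 0 lay 8 of 11 with estradiol and 9 of 11 with ERα17p, against 43.8% and 41.9% of all genes. The gene called lower with estradiol was CREB1, the cAMP response element factor, at -0.61 with estradiol and -0.38 with ERα17p. Its 7 probe sets lay between -0.88 and -0.44 with estradiol. ELK3, a ternary complex factor, had -0.39 and -0.27, and its 2 probe sets were -0.81 and 0.02 with estradiol. MEF2D, a calcium-regulated factor at the NR4A1 promoter, had -0.34 and -0.26.

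Among 18 measured genes known as targets of EGR1, 1 was lower and 1 higher with estradiol against vehicle (median 0.01). Over all genes 2.93% were lower and 0.809% higher. With ERα17p 1 was lower and 0 higher (median -0.02), where 2.14% of all genes were lower and 0.582% higher. Counts of 0 or 1 among so few genes cannot tell the targets from all genes. DUSP5 (1 probe set), a nuclear ERK phosphatase, was the lower one in both, at -1.27 with estradiol and -1.37 with ERα17p. DUSP4, another ERK phosphatase, was higher with estradiol (0.72) and had -0.07 with ERα17p. Set directly, estradiol against ERα17p, DUSP4 was higher by 0.79 with 3 probe sets between 0.68 and 0.82, and 1 of the 18 genes was higher and 0 lower (median 0.05). F3 (1 probe set), the gene of tissue factor, had -0.55 with estradiol and -0.01 with ERα17p.

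Targets known for NR4A receptors, mostly from endocrine, neural and muscle cells, passed 1.5-fold in 0 of 14 cases in every comparison. Over all genes at most 2.93% were lower and at most 0.809% higher in any comparison, so that 0 of 14 is near those shares. The medians were 0.10 with estradiol and 0.01 with ERα17p against vehicle, and 0.06 for estradiol against ERα17p. POMC, the hormone precursor gene of the pituitary, had 0.49 with estradiol and 0.43 with ERα17p. SLC6A3, the dopamine transporter gene, had 0.39 and 0.19, and PRL, the prolactin gene, -0.36 and -0.08. POMC, SLC6A3 and PRL have 1 probe set each. Whether those genes are expressed in these cells cannot be read from the values.

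Most members shared their direction with other immediate early genes, a list chosen with earlier results of these data known. Every comparison with vehicle uses the same vehicle array, so the shared direction is not separate evidence. Of 29 measured genes 16 were lower with estradiol against vehicle and 0 higher (median -0.64), and 16 were lower with ERα17p and 0 higher (median -0.61). ATF3, a stress-induced factor, had -2.35 with estradiol and -2.18 with ERα17p, though its 3 probe sets ran from -3.57 to 0.04 with estradiol. RGS2, which restrains Gq signalling, had -2.18 and -1.98, and ZFP36, which promotes decay of cytokine mRNA, -2.09 and -2.25. RGS2 and ZFP36 have 1 probe set each. For estradiol against ERα17p the median was -0.05, and 1 of 29 was higher and 0 lower. That one was the AP-1 gene FOSL1 (1 probe set), at 0.78, named after its value was seen.

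**Figure D4:**
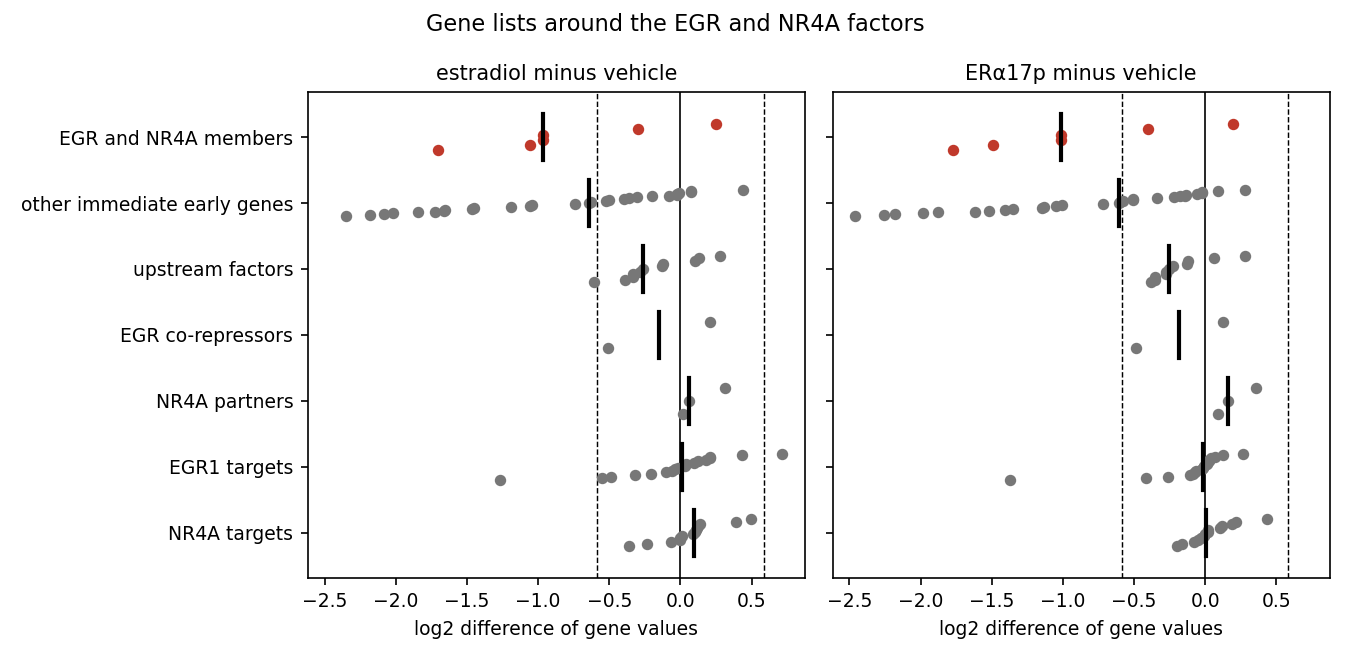
Log2 differences of gene values from vehicle for the 6 members (red) and 6 lists of related genes (grey), 1 point per gene; black bars are list medians and dashed lines 1.5-fold. Members and other immediate early genes have medians of -0.97 and -0.64 with estradiol and of -1.01 and -0.61 with ERα17p. The target lists have medians between -0.02 and 0.10. Members and lists were chosen with earlier results of these data known.

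The genes with the most similar pair of differences (estradiol minus vehicle and ERα17p minus vehicle, as Euclidean distance in log2 units over 3 arrays) were found for the 4 called members. Genes named only by a locus number were left out of this ranking. For EGR1 they were RBM24, an RNA-binding protein gene (distance 0.08, differences -1.13 and -1.48), and SPRY4, a feedback inhibitor of ERK signalling (distance 0.09, -1.07 and -1.40). EGR3 and NR4A3 were each other's nearest gene, at a distance of 0.0045, and for both the next was SCG2, the gene of a neuroendocrine secretory granule protein (-0.99 and -1.04). For NR4A3 this closeness holds for its middle probe set only. Its other probe sets had -2.08 and -2.27 (209959_at), and -0.03 and -0.03 (216979_at). For NR4A2 they were AFTPH-DT, a divergent transcript (distance 0.11), and the AP-1 gene JUN (distance 0.16, -1.72 and -1.61). RBM24, SPRY4, SCG2 and AFTPH-DT have 1 probe set each. Genes closest by this measure are a description of 3 arrays.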

How the data were processed

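Values came from whole-genome expression arrays, with total RNA as the starting material and biotin as the label, per the labels' protocols. The authors made the deposited log2 values with RMA, per the submitters' processing notes, which name no version. Base 2 is assumed from RMA. The values are centred, since in 3979 of 54675 probe sets (7.28%) 2 columns mirrored each other around 0 to 1e-06. Gene symbols came from the platform annotation, brought up to date with GRCh38.p14 by Entrez ID (41037 of 41091 matched, 0 symbols changed). Probe sets with several symbols (1801), with none given here (11721) and controls (62) were left out.

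A gene's value on an array was the median over its probe sets. With 1 array a group nothing was tested, and precision is limited by that number. Calls follow a size rule of 1.5-fold. Other settings were the mean over probe sets, leaving out probe sets ending in _x_at or _s_at, centring each array, a 2-fold rule and the baseline as reference. Members and lists were chosen with earlier results of these data known. The text names all measured members, the 3 genes of each list with the widest estradiol difference (every gene of the co-repressor and RXR lists), markers that moved and the 2 nearest genes by pattern. Python 3.11.15 and pandas 2.3.3 were used.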

Additional observations from a re-analysis of the deposited data

How the results depend on the processing

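No paired analysis was possible because each group has 1 array. For estradiol and for ERα17p against vehicle, 4 of 6 genes were lower with the mean over probe sets and with each array centred on its median, as in the results above. Without probe sets ending in _x_at or _s_at only 4 genes kept a value, and 2 were lower in each of these comparisons (EGR3 and NR4A3). The call of NR4A3 then rests on 209959_at, since its other remaining probe set, 216979_at, hardly differed. EGR1 and NR4A2 are read solely by such probe sets. EGR4, not called, turned to -0.039 with estradiol and -0.044 with ERα17p (0.25 and 0.20 with all probe sets). NR4A1 came to -0.027 and -0.069 (-0.30 and -0.40 with all). That NR4A1 value rests on 210226_at alone, which lay between -0.05 and 0.02 on all 3 arrays. At 2-fold, 2 were lower with estradiol (EGR1 and NR4A2) and 4 with ERα17p. With the baseline in place of the vehicle array 0 were called for estradiol and 0 for ERα17p, and with estradiol EGR1 (0.31), NR4A2 (0.029) and NR4A3 (0.024), which were called lower, and NR4A1 (0.056), which was not, turned to above 0. As far as the baseline rests on these 3 arrays, the centring draws the values of all 3 towards it. Between the treated arrays 0 genes were called under each alternative run. Signal over background is unknown for every probe set. Whether a probe set near 0 on all arrays, such as 216979_at of NR4A3 or 210226_at of NR4A1, detects its transcript is also unknown.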
